A study of Mus musculus with 8 samples.

Results

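The BCL2 family decides at the mitochondrion whether a cell lives or undergoes apoptosis, and 10 of its genes were followed in neutrophils that had entered the inflamed spinal cord. The 10 were taken by name from the table of 23369 genes, and all 10 were present in it. They comprise 6 pro-survival genes (Mcl1, Bcl2l1, Bcl2 and the paralogs Bcl2a1a, Bcl2a1b and Bcl2a1d) and 4 pro-death genes (Bcl2l11, Bid, Bax and Bak1). The cells were CD45+CD11b+Ly6G+ neutrophils, sorted out of digested spinal cord. Their donors were C57BL/6N mice in which EAE (experimental autoimmune encephalomyelitis, a mouse model of multiple sclerosis) had been induced. They were collected at ZT13 (n = 4) or at ZT1 (n = 4), where zeitgeber time (ZT) counts hours from lights-on. The mice of both groups carried EAE, and no healthy or untreated group enters the comparison. Age, sex, the way EAE was induced and the light schedule remain unstated in the sources used here.

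Neutrophils are short-lived cells, and their survival depends strongly on MCL1, a pro-survival protein with a fast turnover. Pro-survival members bind and restrain the effectors BAX and BAK, which otherwise open the outer mitochondrial membrane and release cytochrome c to activate caspases. The BH3-only proteins, among them BIM (gene Bcl2l11) and BID, sense stress or death receptor signals and either block the pro-survival proteins or activate the effectors. BCL2A1 is a further pro-survival protein, encoded in the mouse by several near-identical genes and known as a target of NF-kB.

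The 3 Bcl2a1 genes could be told apart over only a small part of their length. Their coding sequences of 519 bases were 97.7% identical across all 3, with 12 differing positions and an identical run of 217 bases, far longer than the single reads of 50 bases. Their coding starts on chromosome 9 are shown because 6 of the 12 differences lie there. Capitals mark the positions at which the 3 genes differ (GENCODE M21 transcripts, GRCm38, first 90 coding bases in exon 1, 5′ to 3′).
Bcl2a1a, chr9:88957051-88957140, + strand: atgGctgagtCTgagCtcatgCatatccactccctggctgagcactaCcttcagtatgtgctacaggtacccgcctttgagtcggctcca
Bcl2a1b, chr9:89199360-89199449, + strand: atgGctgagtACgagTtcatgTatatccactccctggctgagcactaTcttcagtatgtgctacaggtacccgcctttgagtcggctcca
Bcl2a1d, chr9:88731630-88731719, − strand: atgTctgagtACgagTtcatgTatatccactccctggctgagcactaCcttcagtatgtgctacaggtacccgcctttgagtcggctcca
The next stretch, from coding base 95 to 184, is shown for Bcl2a1a as the start of the run that all 3 genes share, so that no read of 50 bases from it can be assigned to 1 of them.
Bcl2a1a, chr9:88957145-88957234, + strand: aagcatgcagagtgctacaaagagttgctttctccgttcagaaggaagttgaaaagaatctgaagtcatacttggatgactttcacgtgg

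Over whole transcripts, 31% of the 50-base positions of Bcl2a1a, 20.8% of those of Bcl2a1b and 20.5% of those of Bcl2a1d occurred in no other annotated gene. Bcl2a1a shared 67.7% of its positions with Bcl2a1d and 41% with Bcl2a1b, and Bcl2a1b shared 46% with the overlapping predicted gene Gm29094, which was not analysed here. For the other 7 members the unique part was between 82.9% (Bak1) and 100% (Mcl1 and Bcl2l1). The treatment of reads with several possible places was not stated. Of 376 protein-coding genes of the annotation with no unique 50-base position, 6 are among the rows used here, and the highest of the 6 had 30 counts in all 8 libraries together. The levels of the Bcl2a1 genes are uncertain for this reason. Bid and Bcl2l13, another family gene, overlap on opposite strands over 628 exon bases (17.7% of the Bid exons), and the library kit does not mark the strand. Exons of Bak1 overlap those of Ggnbp1 on the opposite strand, and exons of Bcl2 those of D630008O14Rik, but these partners had at most 58 counts in all. On the same strand, Bax shares 192 exon bases (12.2%) with Gm45808 and Bcl2a1b 401 (49.1%) with Gm29094. Neither Gm45808 nor Gm29094 is among the rows used here, so their counts are not known.

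**Figure D1:**
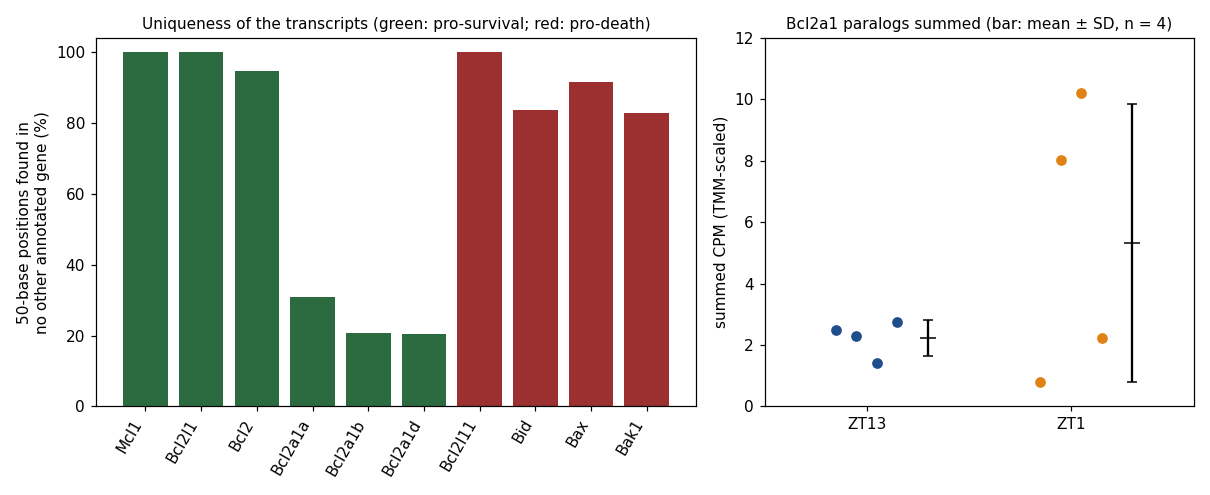
Left: share of each member's 50-base transcript positions found in no other annotated gene (y axis, percent), with pro-survival members in green and pro-death members in red. Right: summed CPM of the Bcl2a1 paralogs in the 4 ZT13 and the 4 ZT1 libraries (points), with mean ± SD. The 3 Bcl2a1 genes have 20.5% to 31% unique positions, and their sum is high in 2 of the 4 ZT1 libraries.

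Total counts were 46152067 to 58251904 in ZT13 libraries and 46932065 to 67873023 in ZT1 libraries. Of the genes sorted on, Itgam (CD11b) stood at 473 to 502 CPM (counts relative to the library total, scaled by TMM factors) at ZT13 and 461 to 501 at ZT1. Ly6g stood at 454 to 512 CPM at ZT13 and 264 to 498 at ZT1, and Ptprc (CD45) at 1526 to 1650 CPM at ZT13 and 1602 to 1916 at ZT1. The log2 fold changes were 0.39 ± 0.18 for Ly6g and -0.18 ± 0.08 for Ptprc, neither past the threshold. Detected genes numbered 13945 to 15751 in ZT13 libraries and 15760 to 17701 in ZT1 libraries, so that the groups did not overlap. The summed level of 11 neutrophil markers also did not overlap, at 163573 to 211068 CPM at ZT13 and 126258 to 161305 at ZT1. In that list Ngp, the most abundant, stood at 37729 to 51230 CPM at ZT13 and 30945 to 39013 at ZT1, and S100a9, with the smallest p, at 34978 to 48633 CPM at ZT13 and 22028 to 36717 at ZT1. The part of these differences in the results on the BCL2 family and the other gene lists was not tested. In sorted bulk cells, fewer cells of a type and less RNA per cell cannot be told apart.

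Mcl1 dominated the family. Per transcript length it averaged 1181 ± 149 TPM (counts per exon base, scaled to the same sum in each library, with the SD over all 8 libraries), rank 75 among the 12610 genes tested, and its lowest library (980 TPM) lay far above every library of any other member. Bid followed at 52.9 ± 10.4 TPM, Bcl2l1 at 44.0 ± 9.07, Bax at 27.7 ± 3.12 and Bcl2l11 at 18.3 ± 5.91. The libraries of Bid and Bcl2l1 overlapped widely, with Bid above in 5 of 8, while Bax lay above Bcl2l11 in 8 of 8. The 3 Bcl2a1 genes averaged 2.96 to 3.63 TPM with an order that varied between libraries. Bak1 (1.01 ± 0.289 TPM) and Bcl2 (0.663 ± 0.326 TPM) were the lowest, with Bak1 above Bcl2 in 6 of 8 libraries. With only the unique 50-base positions counted as length, Bcl2a1d averaged 17.3 ± 16.7 TPM, Bcl2a1b 13.9 ± 10 and Bcl2a1a 10.4 ± 10.1, and Bcl2l11 on the same scale 16.6 ± 5.36 (SD over 8 libraries). The wide spread of the Bcl2a1 genes comes with 2 high ZT1 libraries, described with their CPM. Mcl1 made up 95.2% to 96.8% of the summed TPM of the pro-survival members at ZT13 and 93.9% to 95.8% at ZT1. Among pro-death members Bid held the largest share, with 43.9% to 59.8% at ZT13 and 45.5% to 57.2% at ZT1.

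**Figure D2:**
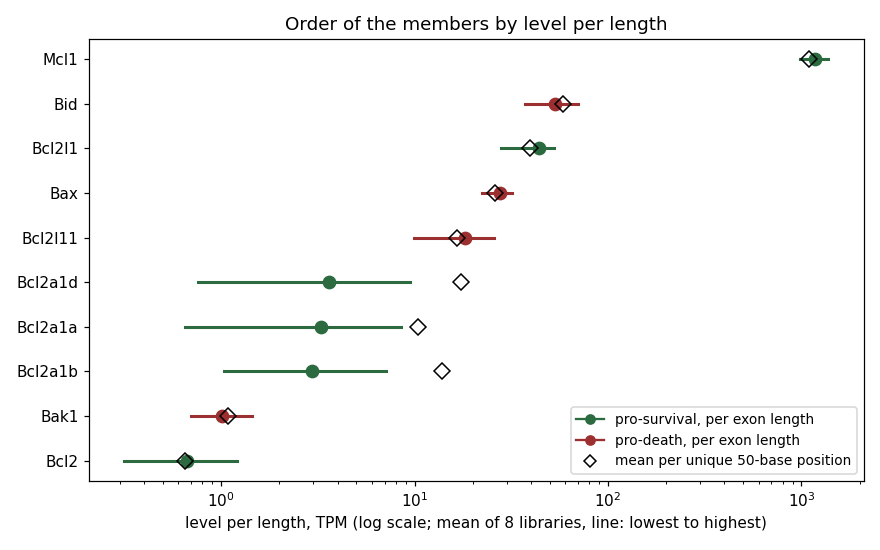
Level per length of each member in TPM on a log axis, as the mean of 8 libraries with a line from the lowest to the highest library, for pro-survival (green) and pro-death (red) genes. Open diamonds give the mean when only unique 50-base positions count as length. Mcl1 stands apart at 1181 TPM, and the diamonds differ most from the circles for the 3 Bcl2a1 genes.

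None of the 10 members differed past the threshold between the time points. With edgeR's quasi-likelihood test, 0 of 10 had a Benjamini-Hochberg adjusted p under 0.05 over all genes tested, where 0 of 12610 genes passed (0.00%). DESeq2 called 0 of the 10 as well, against 256 of 15044 genes (1.70%). At an unadjusted p under 0.05 stood 1 member, Bcl2l11, beside 1160 of all 12610 genes (9.20%). This count of members was 3 without ZT1 replicate 1, beside 781 of all genes tested there. Those added were Bcl2a1a and Bcl2a1d, whose reads can fall to either gene. The count was 2 without ZT13 replicate 4 (beside 1193 genes) and 2 without ZT1 replicate 3 (beside 1502 genes). How many genes were tested in these 3 fits is not given here, so the counts beside them are not shares. Adjusted p-values of the members in edgeR ran from 0.437 to 0.999. The members' log2 fold changes of ZT13 over ZT1 were positive for 4 and negative for 6, with a median of -0.12, while the median over all genes tested was -0.02. Nothing says that samples of a group came from separate animals beyond the labels' wording of cells per mouse, and p-values measure the spread between these samples.

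**Figure D3:**
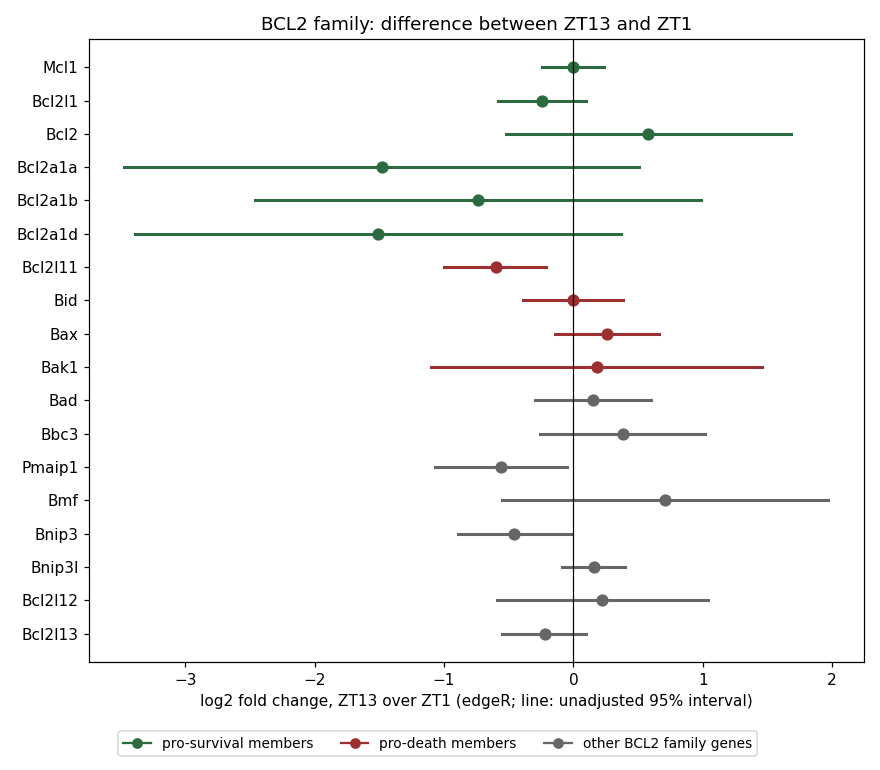
Log2 fold change of ZT13 over ZT1 (x axis) in edgeR with its unadjusted 95% interval, for pro-survival members (green), pro-death members (red) and the other tested BCL2 family genes (grey). Among the members the interval of Bcl2l11, from -1.0 to -0.21, leaves out 0, and those of the Bcl2a1 genes are the widest.

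Of the pro-survival members, Mcl1 was nearly the same at both times. The gene, on chromosome 3 from 95658788 to 95663176, stood at 1960, 1725, 1755 and 1774 CPM in ZT13 replicates 1 to 4, and at 1489, 2042, 1962 and 1720 CPM in ZT1 replicates 1 to 4. The ZT13 libraries lay within the ZT1 range, and ZT1 replicate 1 was the lowest of all 8. The log2 fold change was 0.00 ± 0.11 (SE), with an unadjusted 95% interval from -0.24 to 0.24 (edgeR adjusted p = 0.999). On the TPM scale, which was used to compare genes within libraries and not time points, Mcl1 averaged 1086 ± 128 at ZT13 and 1275 ± 105 at ZT1 (SD, n = 4 each), so its level relative to ZT1 depends on the scale. Bcl2l1, which encodes the pro-survival protein BCL-XL (chromosome 2 from 152780668 to 152831728), stood at 88.2, 71.3, 67.1 and 103 CPM at ZT13. At ZT1 it stood at 88.4, 98.0, 113 and 88.5 CPM. ZT13 replicates 1, 2 and 3 lay below every ZT1 library, replicate 1 only just, and ZT13 replicate 4 lay inside the ZT1 range. Its log2 fold change was -0.24 ± 0.15, with an interval from -0.58 to 0.10 (edgeR adjusted p = 0.711). On the TPM scale Bcl2l1 averaged 36.8 ± 7.32 at ZT13 and 51.1 ± 1.5 at ZT1, so the size of this difference also depends on the scale.

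Bcl2, the founding member of the family (chromosome 1 from 106538178 to 106714274), was barely present. It stood at 4.47, 2.18, 3.32 and 3.01 CPM in the ZT13 libraries and at 4.06, 2.08, 1.41 and 1.13 CPM in the ZT1 libraries. Replicate 1 was the highest at both times, and the groups overlapped. The log2 fold change was 0.58 ± 0.49 with an interval from -0.52 to 1.68 (edgeR adjusted p = 0.795), which spans a decrease as well as an increase. Bcl2 averaged 0.73 ± 0.242 TPM at ZT13 and 0.596 ± 0.421 at ZT1, a smaller difference than on the CPM scale. Lymphocytes also express Bcl2. Of 12 T and NK cell markers 11 were in the table, with a summed level of 10.8 to 22.2 CPM at ZT13 and 9.29 to 19.6 at ZT1. Of these, Cd4, Cd8a, Trac, Cd5, Lck and Klrb1c had no count in 4 or more of the 8 libraries. Nkg7, the most abundant of the list, stood at 6.82 to 13.2 CPM at ZT13 and 5.29 to 16.5 at ZT1. Il7r, with the smallest p of the list, stood at 1.10, 1.38, 0 and 1.91 CPM at ZT13 and at 0, 0.516, 0.0503 and 0 CPM at ZT1. B cell markers, of which 4 of 6 were in the table, summed to 154 to 194 CPM at ZT13 and 136 to 249 at ZT1. Nearly all of that sum was Ighm, at 151 to 189 CPM at ZT13 and 134 to 247 at ZT1. Cd79b was higher at ZT13 without overlap, at 2.29 to 4.51 CPM at ZT13 and 0.940 to 1.95 at ZT1, with a log2 fold change of 1.07 ± 0.45 (edgeR adjusted p = 0.519). The part of T, NK and B cells in the Bcl2 level was not tested.

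The Bcl2a1 genes varied most, and the variation lay within ZT1. Bcl2a1a (chromosome 9 from 88956900 to 88962419) stood at 0.355, 0.409, 0.583 and 1.26 CPM at ZT13 and at 0.195, 2.88, 3.37 and 0.828 CPM at ZT1. Bcl2a1b (89199209 to 89207827) stood at 1.08, 0.834, 0.482 and 0.921 CPM at ZT13 and at 0.309, 1.85, 2.82 and 0.566 CPM at ZT1. Bcl2a1d (88723285 to 88731914) stood at 1.00, 1.04, 0.342 and 0.561 CPM at ZT13 and at 0.292, 3.29, 3.99 and 0.842 CPM at ZT1. For each of the 3 genes ZT1 replicates 2 and 3 were above every ZT13 library and ZT1 replicate 1 was below every one. These 3 genes are not independent, since reads can fall to one or another of them.

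Summed together with the few counts of Bcl2a1c, the paralogs stood at 2.48, 2.28, 1.41 and 2.74 CPM at ZT13 and at 0.796, 8.03, 10.2 and 2.24 CPM at ZT1. Fitted as 1 gene, the sum had a log2 fold change of -1.25 ± 0.69, with an interval from -2.79 to 0.29 (edgeR adjusted p = 0.627). The sum rested on 70 to 134 counts per library at ZT13 and 49 to 607 at ZT1. The shares of the paralogs were not constant between libraries. Bcl2a1a held 14.5% of the 3 genes' counts in ZT13 replicate 1 and 45.9% in ZT13 replicate 4, and 24.5% to 37% in the ZT1 libraries. The genes whose profile over the 8 libraries was nearest to that of the sum, among 6596 genes of 10 or more CPM, were Clec4n, Icam1 and Gbp2. Likeness was measured as the root mean square difference of mean-centred log2 CPM, which was 0.56 for Clec4n (the C-type lectin Dectin-2), 0.58 for Icam1 (an adhesion molecule) and 0.59 for Gbp2 (an interferon-inducible GTPase). The Bcl2a1 sum itself varied about its mean by a root mean square of 1.12 on the log2 scale, so the likeness is loose. Icam1 stood at 25.7 to 38.7 CPM at ZT13, and at 28.6, 92.5, 98.3 and 40.6 CPM in ZT1 replicates 1 to 4.

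**Figure D4:**
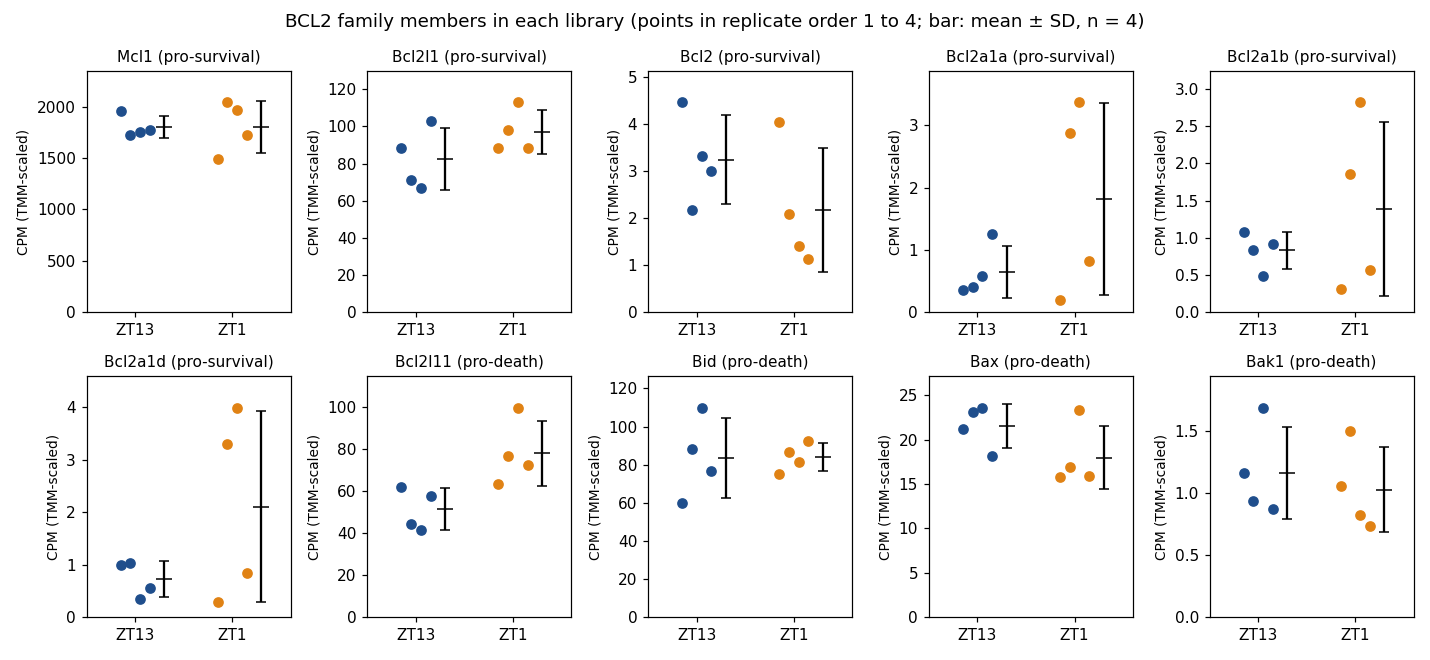
CPM (y axis, from 0) of each member in the 4 ZT13 libraries (blue) and the 4 ZT1 libraries (orange), in replicate order, with mean ± SD. Bcl2l11 is the member whose groups do not overlap, at 41.7 to 62.1 CPM at ZT13 and 63.6 to 99.9 at ZT1, and the 3 Bcl2a1 genes spread widely within ZT1.

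Among the pro-death members, Bcl2l11 was lower at ZT13 in every library, but not past the threshold. This gene on chromosome 2, from 128126038 to 128162547, encodes BIM, the BH3-only protein linked to the death of cells deprived of survival cytokines. It stood at 62.1, 44.5, 41.7 and 57.7 CPM in the ZT13 libraries, and at 63.6, 76.6, 99.9 and 72.6 CPM in the ZT1 libraries. The gap between the groups was narrow, from 62.1 CPM in ZT13 replicate 1 to 63.6 in ZT1 replicate 1. The log2 fold change was -0.60 ± 0.18, with an unadjusted interval from -1.0 to -0.21 (edgeR adjusted p = 0.437). In DESeq2 the adjusted p was 0.0646. Bcl2l11 averaged 13.2 ± 3.01 TPM at ZT13 and 23.4 ± 1.88 at ZT1 (SD, n = 4 each). The size of this difference, too, depends on the scale. Groups that did not overlap were found for 1 of 10 members and for 714 of all genes (5.66%). Of these, 378 (3.00%) were lower at ZT13. Detected genes were fewer at ZT13, as given above, and monocyte, macrophage and dendritic cell markers (12 of 12 in the table) summed to 764 to 1212 CPM at ZT13 and 1070 to 1376 at ZT1. Of these 12 markers Zbtb46 and Xcr1 had no count in 4 or more libraries, and Csf1r, the most abundant, stood at 368 to 538 CPM at ZT13 and 455 to 623 at ZT1. Mrc1, which had the smallest p of the list, stood at 0 to 0.135 CPM at ZT13 and 0.585 to 2.26 at ZT1. Their part in the Bcl2l11 difference was not tested.

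The BIM gene is a known target of FOXO transcription factors. Its promoter is shown for that reason, from 250 to 131 bases before the first RefSeq start, with the FOXO letters GTAAACA in capitals (RefSeq, GRCm38.p6, + strand).
Bcl2l11, chr2:128125788-128125907: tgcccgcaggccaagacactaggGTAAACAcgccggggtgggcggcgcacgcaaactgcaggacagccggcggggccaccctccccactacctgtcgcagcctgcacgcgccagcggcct
Windows of 250 bases before to 50 after a start were found for all 10 members. GTAAACA or its complement occurred in 1 of the 2 Bcl2l11 windows, in no window of another member and in 3.65% of 32851 windows of all genes. The E-box CACGTG, the letters bound by the clock proteins CLOCK and BMAL1 and also by other factors such as MYC, occurred among the members in Bax alone, and in 7.15% of all windows. Bax holds 1 copy just before the start and 1 just after it. The first copy is in capitals in the 120 bases before the start (RefSeq, GRCm38.p6, − strand).
Bax, chr7:45466899-45467018: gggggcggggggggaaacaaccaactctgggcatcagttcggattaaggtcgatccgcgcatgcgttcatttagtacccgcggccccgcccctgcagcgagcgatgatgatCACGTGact
The canonical kappa-B site (in 0.155% of all windows), TTCNNNGAA (a STAT site, 8.30%) and TTATGTAA (a D-box, 0.938%) were in no member's window. Both strands were searched, and no 2 of the matches overlapped. A match is a description of the sequence and says nothing of binding.

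Bid encodes the BH3-only protein that links death receptors to mitochondria (chromosome 6 from 120891930 to 120916853). It stood at 60.2, 88.0, 110 and 76.7 CPM at ZT13 and at 75.0, 86.9, 81.7 and 92.2 CPM at ZT1. The ZT1 libraries lay inside the wider ZT13 range. The log2 fold change was -0.00 ± 0.17, with an interval from -0.39 to 0.38 (edgeR adjusted p = 0.996), and reads from the overlap with Bcl2l13 cannot be told apart. Of the effectors, Bax (chromosome 7 from 45461697 to 45466898) stood at 21.2, 23.1, 23.6 and 18.2 CPM at ZT13 and at 15.8, 16.9, 23.3 and 15.9 CPM at ZT1. Every ZT13 library was above 3 of the 4 ZT1 libraries, and ZT1 replicate 3 lay among the ZT13 values. The log2 fold change was 0.26 ± 0.18, with an interval from -0.14 to 0.66 (edgeR adjusted p = 0.723). On the TPM scale Bax averaged 28.1 ± 4.13 at ZT13 and 27.4 ± 2.31 at ZT1. Bid averaged 48 ± 10.2 TPM at ZT13 and 57.8 ± 9.29 at ZT1. For both genes, as for Mcl1, the level relative to ZT1 depends on the scale. Bak1, the second effector (chromosome 17 from 27019810 to 27029009), stood at 1.16, 0.936, 1.69 and 0.876 CPM at ZT13 and at 1.06, 1.5, 0.822 and 0.732 CPM at ZT1. Its log2 fold change of 0.18 ± 0.57 had an interval from -1.10 to 1.46 (edgeR adjusted p = 0.961), and it rested on 39 to 84 counts per library. Bak1 averaged 0.988 ± 0.278 TPM at ZT13 and 1.04 ± 0.341 at ZT1, so its direction depends on the scale.

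Mcl1 carried most of the pro-survival side in each library. The summed TPM of the 6 pro-survival members exceeded that of the 4 pro-death members by 3.95, 3.53, 3.35 and 3.74 on the log2 scale in the ZT13 libraries. In the ZT1 libraries this log2 ratio was 3.53, 3.79, 3.59 and 3.53. The means were 3.64 ± 0.26 at ZT13 and 3.61 ± 0.12 at ZT1 (SD, n = 4 each), and the groups overlapped. Without Mcl1, and with whole exon lengths, the other pro-survival members together lay on average below the pro-death members. Their log2 ratio was -1.09 ± 0.46 at ZT13 and -0.74 ± 0.29 at ZT1. The Bcl2a1 levels in this sum are uncertain, and were higher when only unique positions counted as length. The ratio without Mcl1 was not computed with unique positions, so its sign in single libraries on that scale is not known. On that scale the means over 8 libraries were 39.4 TPM for Bcl2l1, 17.3 for Bcl2a1d, 13.9 for Bcl2a1b, 10.4 for Bcl2a1a and 0.649 for Bcl2. They were 58.5 TPM for Bid, 25.9 for Bax, 16.6 for Bcl2l11 and 1.09 for Bak1. These pro-survival means together lay below the pro-death means together. Single pairs, chosen after the values were seen, are given with no test. The log2 ratio of Mcl1 over Bcl2l11 was 6.18 to 6.63 at ZT13 and 5.53 to 5.97 at ZT1, without overlap. That of Bcl2l1 over Bcl2l11 was 1.31 to 1.64 at ZT13 and 0.99 to 1.28 at ZT1, also without overlap. Both ratios share the Bcl2l11 values already given. That of Bcl2l1 over Bax was 0.51, 0.08, -0.03 and 0.96 at ZT13 and 0.95, 0.99, 0.74 and 0.93 at ZT1, with overlap from ZT13 replicate 4.

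**Figure D5:**
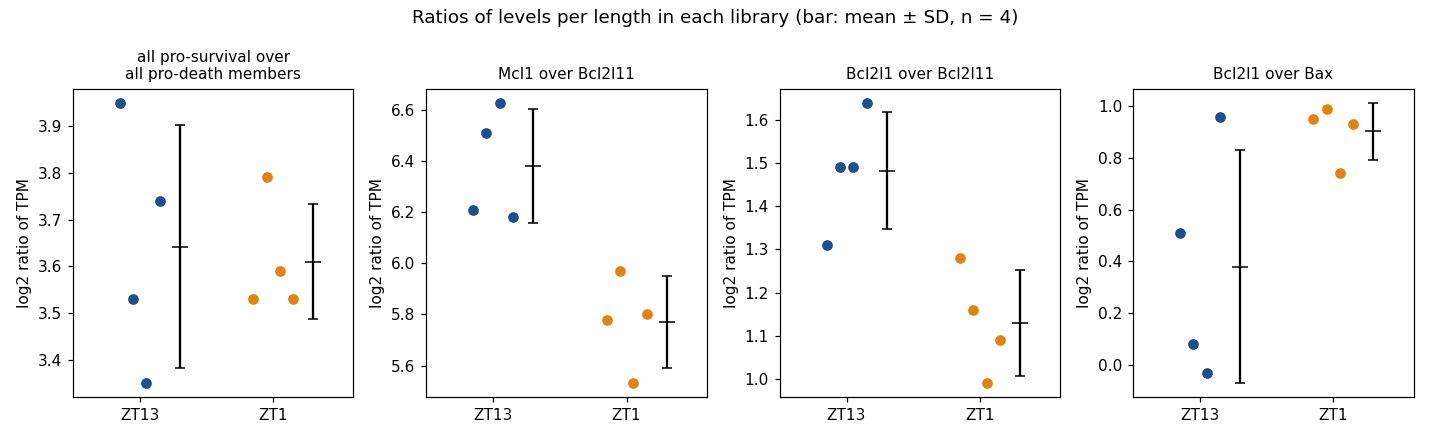
Log2 ratios of TPM (y axes, which do not start at 0) in each ZT13 library (blue) and ZT1 library (orange), with mean ± SD, for all pro-survival over all pro-death members and for 3 single pairs. The ratio over all members overlaps between the groups (3.64 ± 0.26 at ZT13 and 3.61 ± 0.12 at ZT1), and the pairs with Bcl2l11 do not.

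Of 16 other BCL2 family genes 15 were in the table and 8 had enough counts to be tested. None passed in edgeR (adjusted p from 0.519 to 0.912) or in DESeq2, and 5 had positive and 3 negative log2 fold changes, with a median of 0.15. Pmaip1 and Bnip3, 2 of the 8, stood at an unadjusted p under 0.05 in edgeR, beside 1160 of all 12610 genes (9.20%). Both were lower at ZT13, as were 612 of all genes (4.85%) at that p. The BH3-only gene Pmaip1 (NOXA), whose protein binds MCL1, stood at 47.6, 72.0, 35.0 and 36.3 CPM at ZT13 and at 62.1, 81.7, 75.2 and 61.9 CPM at ZT1. ZT13 replicate 2 lay inside the ZT1 range and the other ZT13 libraries below it, and the log2 fold change was -0.56 ± 0.23. Bnip3, a mitophagy receptor related to the BH3-only proteins, stood at 16.8 to 20.8 CPM at ZT13 and 19.8 to 31.5 at ZT1 (-0.46 ± 0.19), whereas its relative Bnip3l stood at 138 to 165 CPM at ZT13 and 111 to 146 at ZT1 (0.16 ± 0.11). The BH3-only genes Bbc3 (PUMA), Bad and Bmf had positive values. Bbc3 stood at 5.51 to 8.22 CPM at ZT13 and 4.16 to 7.93 at ZT1, Bad at 11.6 to 18.1 CPM at ZT13 and 11.5 to 16.0 at ZT1, and Bmf at 1.00 to 5.48 CPM at ZT13 and 1.30 to 2.40 at ZT1. Bcl2l13 stood at 34.3 to 52.5 CPM at ZT13 and 46.7 to 57.1 at ZT1, with the overlap with Bid named above. Bcl2l12 stood at 2.13 to 3.86 CPM at ZT13 and 2.32 to 2.60 at ZT1.

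Downstream of the mitochondrion, 0 of 14 tested caspase and execution genes passed in edgeR. At an unadjusted p under 0.05 stood 0 of the 14, beside 1160 of all 12610 genes (9.20%). Of these, 9 were positive and 5 negative, with a median log2 fold change of 0.04. Cycs, the gene of cytochrome c, stood at 37.1 ± 7.16 CPM at ZT13 and 29.4 ± 4.69 at ZT1 (SD, n = 4 each), with overlap. Casp6, an effector caspase, stood at 30.7 ± 4.12 CPM at ZT13 and 23.1 ± 8.37 at ZT1, and Apaf1, the scaffold of the apoptosome, at 93.3 ± 5.12 CPM at ZT13 and 105 ± 16.5 at ZT1. The oxidoreductase gene Aifm1 stood at 28.8 ± 2.39 CPM at ZT13 and 24.9 ± 5.69 at ZT1. Of 9 genes of the inhibitors of apoptosis, 8 were tested and 0 passed, with 4 in each direction and 0 at an unadjusted p under 0.05. Birc3 (cIAP2), the most abundant of the 4 named here, stood at 221 ± 19.8 CPM at ZT13 and 244 ± 36.7 at ZT1, and Birc2 (cIAP1) at 27.3 ± 8.82 CPM at ZT13 and 36.1 ± 4.04 at ZT1. Naip2 stood at 45.2 ± 12.8 CPM at ZT13 and 39.8 ± 6.67 at ZT1, and Naip5 at 19.5 ± 5.34 CPM at ZT13 and 17.4 ± 4.21 at ZT1. The Naip genes are similar to each other, and their counts are uncertain for that reason.

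Of 13 death receptor and adaptor genes 12 were tested and 0 passed, with 5 positive and 7 negative values. Only 1 of the 12, Casp8, stood at an unadjusted p under 0.05 in edgeR, beside 1160 of all 12610 genes (9.20%). Casp8, the initiator caspase that cleaves BID, stood at 68.7, 76.5, 77.5 and 76.0 CPM at ZT13 and at 87.8, 87.2, 85.0 and 90.1 CPM at ZT1. Every ZT13 library lay below every ZT1 library, and the log2 fold change was -0.23 ± 0.09 (edgeR adjusted p = 0.504). Tradd, an adaptor of TNF receptor 1, stood at 28.2 ± 2.25 CPM at ZT13 and 23.9 ± 1.62 at ZT1. The necroptosis effector Mlkl stood at 14.2 ± 4.18 CPM at ZT13 and 16.9 ± 2.95 at ZT1, and the TRAIL receptor gene Tnfrsf10b at 3.54 ± 1.93 CPM at ZT13 and 2.20 ± 0.963 at ZT1. Of 6 genes that control the turnover of MCL1 protein, 0 passed and 0 stood at an unadjusted p under 0.05. The ubiquitin ligase gene Huwe1 (MULE), which marks MCL1 for degradation, stood at 5.18 ± 1.58 CPM at ZT13 and 7.43 ± 2.07 at ZT1. The deubiquitinase gene Usp9x, which protects it, stood at 23.1 ± 8.97 CPM at ZT13 and 30.2 ± 6.98 at ZT1. The ligase subunit genes Btrc, at 13.1 ± 4.35 CPM at ZT13 and 10.2 ± 2.53 at ZT1, and Fbxw7, at 7.54 ± 2.41 CPM at ZT13 and 8.44 ± 1.02 at ZT1, also overlapped between the groups.

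Of the 20 genes of neutrophil survival signalling, 0 passed in edgeR or DESeq2. Of the 20, 16 had negative log2 fold changes, with a median of -0.16, beside 6597 of all 12610 genes tested (52.3%). At an unadjusted p under 0.05 stood 4 genes, all lower at ZT13, beside 612 of all genes (4.85%). Pim3, a kinase of the PIM family that is induced by cytokine signals, stood at 21.9, 18.9, 15.7 and 16.6 CPM at ZT13 and at 26.1, 25.5, 29.5 and 22.3 CPM at ZT1. The groups did not overlap, and the log2 fold change was -0.50 ± 0.16 (edgeR adjusted p = 0.475). Csf3r, the receptor for G-CSF and a main survival receptor of neutrophils, stood at 1719, 1587, 1407 and 1522 CPM at ZT13 and at 1593, 2074, 1866 and 2083 CPM at ZT1. ZT1 replicate 1 lay inside the ZT13 range, and the log2 fold change was -0.29 ± 0.11 (edgeR adjusted p = 0.494). Hif1a, a hypoxia factor that prolongs neutrophil survival, stood at 182 to 239 CPM at ZT13 and 239 to 368 at ZT1, with the groups just apart (-0.40 ± 0.15). Stat3, the transcription factor downstream of the G-CSF receptor, stood at 589 ± 68.3 CPM at ZT13 and 687 ± 45.9 at ZT1 (-0.22 ± 0.10). The summed monocyte, macrophage and dendritic cell markers given beside Bcl2l11 overlapped between the groups. ZT13 replicates 1 and 2 (1103 and 1212 CPM) lay inside the ZT1 range, and ZT13 replicates 3 and 4 (764 and 851 CPM) below it. The part of these markers in the values of the survival signalling genes was not tested. Csf3r is itself 1 of the 11 neutrophil markers, whose sum was higher at ZT13. Over all 68 other apoptosis and survival genes tested, 0 passed. At an unadjusted p under 0.05 stood 7, all lower at ZT13, beside 612 of all 12610 genes (4.85%) lower at ZT13. The groups did not overlap for 3 (Casp8, Pim3 and Hif1a), all lower at ZT13, beside 378 of all genes (3.00%) lower at ZT13. Over both directions, the numbers for all genes were 1160 (9.20%) and 714 (5.66%).

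By the same measure of likeness as for the Bcl2a1 sum, the genes nearest to Mcl1 over the 8 libraries were Zfand5 (0.05), Ppp1r2 (0.07) and Stk17b (0.07). Mcl1 itself varied about its mean by a root mean square of 0.14 on the log2 scale. Zfand5 stood at 233 to 276 CPM at ZT13 and 216 to 283 at ZT1, with ZT1 replicate 1 the lowest, as for Mcl1. The genes nearest to Bcl2 were Taf3 (0.31), Smarcad1 (0.32) and Yars (0.36), against a spread of 0.65 for Bcl2. Taf3 stood at 17.1, 7.12, 13.1 and 13.3 CPM in ZT13 replicates 1 to 4 and at 12.1, 8.23, 7.84 and 6.75 CPM in ZT1 replicates 1 to 4.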

How the data were processed

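RNA of sorted spinal cord neutrophils was measured in 8 libraries, 4 at ZT13 and 4 at ZT1. Per the labels' protocols, cDNA was made with SMART-Seq v4 and libraries with Nextera XT, with single reads of 50 bases. The authors deposited raw counts per Ensembl gene. The submitters' processing notes name DESeq2 1.46.0, Subread 2.0.3, featureCounts, STAR 2.7.10b and FastQC, and the build GRCm38. What each did, the strand setting, the treatment of reads with several places and the annotation release: not given in the sources used here.

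Of 23369 genes, 22222 were named from GENCODE M21 (GRCm38, version numbers ignored). The 1147 others held 0.125% of counts. No column was left unused. edgeR 4.0.16 was run in R 4.3.3 with filterByExpr (minimum count 10, minimum total 15), TMM factors, robust quasi-likelihood F-tests over 12610 genes and Benjamini-Hochberg adjustment with a threshold of 0.05. Standard errors are the absolute log2 fold change over the square root of F. TPM used GENCODE exon lengths. The 3 counts that a count of 0 allows equal 0.0414 to 0.0674 CPM per library, which covers counting error only. Alternatives were other scalings, filters, DESeq2 1.42.0 on unfiltered counts, limma-voom (limma 3.58.1), each library left out, replicate blocks and summed paralogs. Procedures were tested on simulated data.

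The members and gene lists were chosen with earlier results of these data known. By the rule for names, the text gives the members, the tested other family genes, the 4 genes of each pathway list with the smallest p, sort markers, the most abundant gene and the gene with the smallest p of each other marker list (given only where the list stands beside a result), and the 3 genes nearest in profile to Mcl1, Bcl2 and the Bcl2a1 sum.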

Additional observations from a re-analysis of the deposited data

Results flagged for a closer look

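Among the members, each time point's 4 libraries were checked for a single library far from the others, with 22 groups checked including the Bcl2a1 sum. Bax in ZT1 replicate 3 stood at 23.3 CPM, apart from 15.8, 16.9 and 15.9 CPM in the other ZT1 libraries. The gap to the nearest library was 0.847 of the group's range, above the critical value of 0.829 for 4 samples. Chance flags about 1 in 20 groups. Without ZT1 replicate 3 the log2 fold change of Bax was 0.41 in place of 0.26, and its adjusted p in edgeR was 0.370.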

How the results depend on the processing

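No member and no other apoptosis or survival gene was called under any of the 18 alternatives. Over all genes DESeq2 called 256 in place of 0. Genes at an unadjusted p under 0.05 numbered 2091 without a filter on low counts and 1901 in DESeq2, in place of 1160. Bcl2l11 kept its direction in all 18, with log2 fold changes from -0.71 to -0.46, an unadjusted p under 0.05 in each (0.00139 to 0.0394) and adjusted p from 0.0646 to 0.753. Turned values were those of Bcl2a1b with the block from library names (0.11) and Bak1 with single libraries left out (-0.05 to 0.42, negative without ZT13 replicate 3). Mcl1 (-0.08 to 0.06) and Bid (-0.16 to 0.12), both at 0.00 in the fit reported, lay on either side of 0. The other 28 named genes kept their direction. Most of the 28 were named for the smallest p of their list in these same libraries, which favours a kept direction. The 7 of 68 at an unadjusted p under 0.05 became 4 with a minimum of 5 CPM in 4 libraries, beside 996 of all genes tested there. They became 2 with the block from library names, beside 1193 of all genes. How many genes were tested under the alternatives is not given here, so their counts over all genes are not shares. The levels of the Bcl2a1 genes per unique position are given in the report.

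Same-numbered libraries did not deviate together (correlations from -0.0399 to 0.0196 over 4 pairs by title, and from -0.000618 to 0.0505 over 3 pairs by library name). By title, 1 of 8 libraries correlated best with its own number. ZT13 replicate 3 and ZT1 replicate 4, which share a number by library name, correlated best with each other (0.0505). With the replicate number as a block 0 genes were called, and the log2 fold change of Bcl2l11 was -0.60 by title and -0.54 by library name. With the block from library names, which uses only the 3 pairs, 2 members stood at an unadjusted p under 0.05 in place of 1. Over all genes tested there the count was 1193 in place of 1160. The member added was Bax, with a log2 fold change of 0.48 ± 0.18. Without the Bcl2a1 genes the difference of the pro-survival over pro-death log2 ratio, ZT13 minus ZT1, was 0.04 in place of 0.03. Counts were lowest for Bcl2, Bak1 and the Bcl2a1 genes, whose intervals were the widest. Counting error and the spread between libraries were not separated.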

Other observations

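Of the BCL2 family genes with too few counts to be tested, Bcl2l2 (BCL-W) had 8, 45, 0 and 29 counts in the ZT13 libraries and 9, 0, 24 and 2 in the ZT1 libraries. Bcl2l14 had 0 in each ZT13 library and 0, 8, 40 and 0 counts in the ZT1 libraries, so that ZT1 replicates 2 and 3, which were high in the Bcl2a1 genes, were also the only libraries with counts of it. The effector-like gene Bok had 0 counts in each ZT13 library and 7, 4, 0 and 0 in the ZT1 libraries. Bcl2l15 had 20 counts in all, and Bcl2l10, Bik and Bcl2a1c had 3 each.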
